A study of Rattus norvegicus with 9 samples.

Results

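Of the 186719 chromatin regions found accessible by ATAC-seq in the dorsal root ganglia (DRGs) of 5 rats, 1514 (0.811%) lay in short gaps between regions carrying H3K4me1, the monomethylated form of histone H3 at lysine 4. A region was counted among them when it was shorter than 1500 bp, overlapped no H3K4me1 region, and had an H3K4me1 region ending within 1000 bp before its start and another starting within 1000 bp after its end. They are called gap regions here. The choice used positions only and no read values. ATAC-seq cuts and tags open DNA with the Tn5 transposase, and the DRG is the cluster of sensory neuron cell bodies and their glia beside the spinal cord. The 2 CCI rats were adult female Sprague-Dawley rats, killed 14 days after chronic constriction injury (CCI), in which loose ligatures are tied around the sciatic nerve. The 3 naive rats were adults of the same sex and strain and had no operation, so surgery without nerve injury was not represented. The age of the rats is given in the sources both as 8 to 10 weeks and as 12 to 16 weeks. The L4 to L6 ganglia of the injured side were taken, with 1 rat per library. For the H3K4me1 ChIP-seq, 2 samples per group were used, each pooling 3 rats, and the authors merged all 4 into a single list of 211440 positions, so that a gap is a stretch where neither group contributed a region. Whole ganglia hold neurons, satellite glia, Schwann cells, macrophages and vessel cells. In such bulk tissue, fewer cells of a type and less open chromatin per cell cannot be told apart. The markers of these cells could not be checked, as no gene annotation of the rn6 build was used here.

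H3K4me1 is deposited on nucleosomes at enhancers and on the shoulders of promoters. Where transcription factors bind, nucleosomes are shifted or lost, so an active element often shows open DNA in the middle with marked nucleosomes on either side, a shape that ChIP-seq records as a dip between neighbouring regions of signal. In sensory ganglia, enhancers of this kind control the neuronal and glial genes that respond to nerve injury. Open regions in such dips are left out when accessible regions are required to overlap the histone mark itself.

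Some of the gap regions had a named neighbour. The authors listed the genes nearest to promoters and H3K4me1-overlapping regions that differed between the groups, and 27 gap regions had such a listed region inside the H3K4me1 on 1 of their sides, with 26 genes named. The copy of the region list used here was incomplete, so further listed neighbours may have been missed and these counts, with those on listed neighbours given later, cover part of the list. Since the list was made from the same 5 libraries, its direction is no independent evidence for the gap regions. No gap region stood in the promoter list itself. For 4 genes the listed neighbour was a promoter, namely Gaa, which encodes the lysosomal enzyme that breaks down glycogen, Unc13d, which primes secretory granules for release, Trafd1, a negative regulator of innate immune signalling, and LOC100911717. The RefSeq promoters of Gaa, Unc13d and Trafd1 are shown because these genes had a listed promoter beside a gap region and their sequence could be read here. A functional link to the gap regions was not tested. They span 250 bases before to 50 bases after the start of the gene, in build GRCr8, 5′ to 3′ on the strand of the gene, at chr10:105028105-105028404 (plus strand) for Gaa, chr10:101810360-101810659 (minus strand) for Unc13d and chr12:40826001-40826300 (plus strand) for Trafd1. These positions cannot be set beside the rn6 positions of the gap regions, and the letters are those of the neighbouring promoters and not of the gap regions. Capitals mark matches, on either strand, to CACGTG (E-box), GGGCGG (Sp/KLF) or CCAAT (NF-Y).
Gaa: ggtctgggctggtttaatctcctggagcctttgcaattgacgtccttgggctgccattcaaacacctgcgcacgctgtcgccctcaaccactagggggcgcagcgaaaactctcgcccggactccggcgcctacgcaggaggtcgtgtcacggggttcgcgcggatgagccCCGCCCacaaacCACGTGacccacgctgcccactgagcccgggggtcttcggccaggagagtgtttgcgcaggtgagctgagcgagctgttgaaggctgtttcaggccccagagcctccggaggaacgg
Unc13d: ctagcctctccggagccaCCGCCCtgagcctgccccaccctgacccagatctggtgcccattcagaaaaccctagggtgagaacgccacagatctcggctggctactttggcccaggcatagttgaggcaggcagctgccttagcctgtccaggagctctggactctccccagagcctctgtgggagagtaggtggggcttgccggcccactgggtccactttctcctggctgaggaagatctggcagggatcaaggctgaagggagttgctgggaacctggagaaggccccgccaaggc
Trafd1: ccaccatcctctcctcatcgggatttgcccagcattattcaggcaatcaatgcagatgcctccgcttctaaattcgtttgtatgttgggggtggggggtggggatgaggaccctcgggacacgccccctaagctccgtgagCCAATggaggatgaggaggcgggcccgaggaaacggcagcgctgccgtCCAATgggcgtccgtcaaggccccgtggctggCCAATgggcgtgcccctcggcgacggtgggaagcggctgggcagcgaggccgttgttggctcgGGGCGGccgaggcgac

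The Gaa promoter held 1 match to CACGTG, letters found in 6.42% of the 33469 rat promoters of this length, and 1 match to GGGCGG, found in 33.1%. The Unc13d promoter held GGGCGG alone, and the Trafd1 promoter held 3 matches to CCAAT, found in 37.5% of promoters, and 1 to GGGCGG. The other strings searched on both strands, TGAGTCA with its reverse complement TGACTCA (AP-1), TGTGGT (RUNX core), ACAAAG (SOX), TTGCGCAA (C/EBP) and TGACGTCA (CRE), together with the NRF1 motif, were not in these 3 windows. A match is a description of the letters and not a bound site. GC content was 64.3% for Gaa, 62.7% for Unc13d and 65.3% for Trafd1, and the windows held 25, 6 and 25 CpG dinucleotides, against medians of 51.7% and 7 over all promoters.

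Beside the Gaa promoter, the gap region at chr10:108395465-108395614 (rn6) was separated from the listed promoter region by 73 bases. It had 8.68 and 16.02 normalized reads in the CCI rats and 4.57, 7 and 7.23 in the naive rats, where a normalized read is a read divided by the size factor of its library. Both CCI rats were above all naive rats, yet the log2 fold change of CCI over naive, 0.84 ± 0.56 (SE), did not pass the test (limma, adjusted p = 0.571 over all regions). The listed Gaa promoter region had 54.07 and 39.37 normalized reads against 14.05, 23 and 22.34, with a log2 fold change of 1.21 (adjusted p = 0.0449 by limma). The gap region was thus the weaker of this pair in reads per region and in change, although the listed region was also the longer. The gap region 578 bases from the Unc13d promoter region, at chr10:104629350-104629547, had 20.03 and 23.81 normalized reads after CCI against 16.01, 9 and 13.14, with a log2 fold change of 0.77 (adjusted p = 0.452). The one 1205 bases from the Trafd1 promoter region, at chr12:40693667-40693955, had 27.37 and 26.1 against 26.46, 24 and 14.46, and its log2 fold change was 0.34 (adjusted p = 0.716). The groups were separate at Unc13d and overlapped at Trafd1, and neither gap region was called. A region counted as called when its unadjusted p in limma was under 0.01.

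Each library held between 4633807 and 13248437 reads within accessible regions, and the deposited values were whole reads divided by the size factor for 100% of the values in every library, within the rounding of the file. The median gap region had 19 and 25 reads in the CCI libraries and 28, 9 and 13 in the naive libraries. Naive rat 2, the shallowest library, was at a single read in 6.08% of the gap regions, against 0.132% to 1.39% in the other 4 libraries. Counting error is therefore largest there, and a single gap region could be compared only where the change was large.

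The gap regions were short and spread over all 21 chromosomes in the table. Their median length was 218 bp (quartiles 168 and 300 bp, longest 1068 bp), close to the 222 bp of regions with no H3K4me1 within 1000 bp and below the 358 bp of regions overlapping H3K4me1. The gaps that held them had a median width of 1186 bp (quartiles 977 and 1448 bp), of which the accessible region filled a median of 18.7%. The nearer H3K4me1 edge was a median of 268.5 bp away, and 151 gap regions came within 50 bases of an edge. The flanking H3K4me1 regions were of ordinary size, with median lengths of 630 bp before and 619.5 bp after the gap region, against 621 bp over the whole list. Both flanks were at least 1 kb long for 100 gap regions. Of the 1482 gaps, 1450 held a single gap region and 32 held a pair.

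Most gaps of this size held no accessible region. There were 56315 H3K4me1 gaps of 150 to 2600 bp, and 3454 (6.13%) of them contained an accessible region free of H3K4me1. A gap region, which had to lie within 1000 bp of both edges, was found in 2.63%. The share was 3.48% of gaps 501 to 1000 bp wide and 4.69% of gaps 1001 to 1500 bp wide. Counted per length of DNA, accessible regions under 1500 bp free of H3K4me1 numbered 40.4 per Mb in gaps of 150 to 1000 bp and 44.4 per Mb in gaps of 1001 to 2600 bp. In gaps of 2601 to 10000 bp there were 50.01 per Mb, and in gaps over 10000 bp 49.5 per Mb. The H3K4me1 regions themselves had 312 overlapping accessible regions per Mb. Accessible regions were thus no denser in the short gaps than in long stretches without the mark, although the shortest gaps leave little room for a region that must not touch either side. No test was made on these counts, which come from a single merged list.

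In level, the gap regions resembled other regions outside the mark. Their median was 12.68 and 11.45 normalized reads in the CCI rats and 9.15, 9 and 8.54 in the naive rats, so that the groups did not overlap. This was not particular to gap regions. The medians over all accessible regions were 11.35 and 10.99 against 10.13, 9 and 9.86, also separate. With H3K4me1 on 1 side only they were 10.68 and 10.07 against 8.82, 8 and 7.89, again separate. With none within 1000 bp they were 8.68 and 9.16 against 9.15, 7 and 7.89, and the groups overlapped. Regions overlapping H3K4me1 had medians of 22.7 and 19.23 against 18.3, 19 and 18.4 normalized reads, with the groups separate. The ratio of these medians, gap regions over overlapping regions, was 0.559 and 0.595 in the CCI rats and 0.500, 0.474 and 0.464 in the naive rats, or 0.518 ± 0.0566 (SD, n = 5). The CCI rats averaged 0.577 ± 0.0260 (SD, n = 2), compared with 0.479 ± 0.0186 (SD, n = 3) for the naive rats. The ratio was higher in both CCI rats than in any naive rat, with p = 0.1 in a two-sided exact permutation test, the smallest p that 2 against 3 rats allow. Per base of region length the same ratio was 0.766 ± 0.0896 (SD, n = 5), since overlapping regions were longer, and the groups were again separate (exact permutation p = 0.1). Against regions with H3K4me1 on 1 side only, the ratio was 1.19 and 1.14 in the CCI rats and 1.04, 1.13 and 1.08 in the naive rats (exact permutation p = 0.2). Against regions with no H3K4me1 within 1000 bp it was 1.46 and 1.25 against 1, 1.29 and 1.08, where the groups overlapped (exact permutation p = 0.3).

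**Figure D1:**
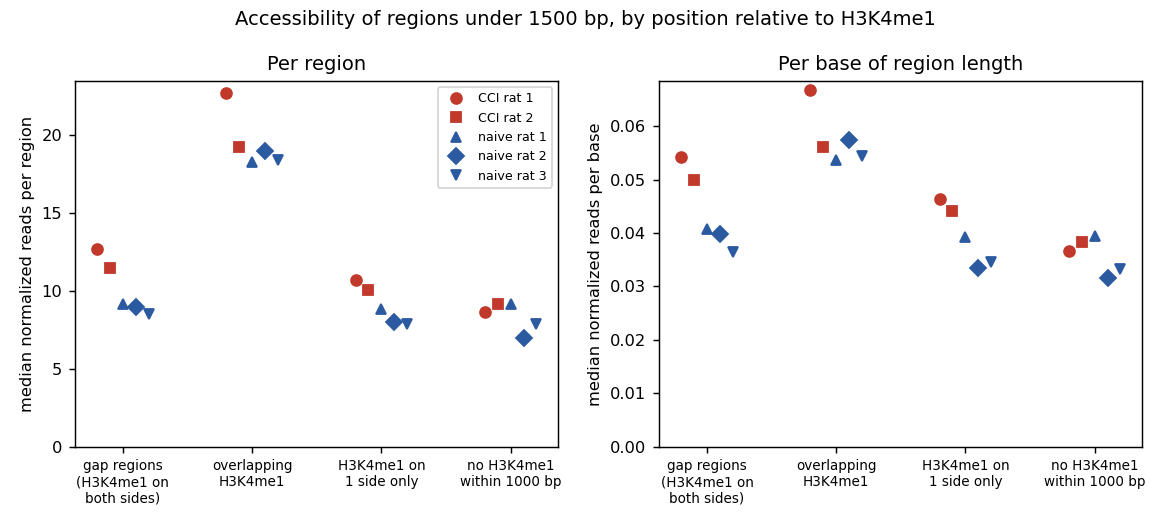
Median normalized reads per region (left) and per base of region length (right) of accessible regions under 1500 bp, grouped by their position relative to H3K4me1, with 1 point per rat and no error bars. Gap regions sit at 11.45 to 12.68 normalized reads in CCI rats and 8.54 to 9.15 in naive rats, well under the regions that overlap H3K4me1.

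The question the groups allow is whether accessibility in these gaps differed after CCI. Most gap regions had more normalized reads after CCI: 1079 of 1514 (71.3%) had a log2 fold change above 0, compared with 58.1% of all accessible regions. Their median log2 fold change was 0.35 (quartiles -0.08 and 0.78), beside 0.13 for all accessible regions, 0.15 for regions overlapping H3K4me1, 0.27 for those with H3K4me1 on 1 side only and 0.09 for those with none within 1000 bp. Both CCI rats were above all 3 naive rats at 412 gap regions (27.2%), against 18.2% of all accessible regions, and below all of them at 97 (6.41%), against 11.0%. By limma on log2(normalized reads + 1) with a two-sided unadjusted p under 0.01, 64 gap regions (4.23%) were called, against 3.59% of all accessible regions. The share called was thus near the background. The calls divided into 56 higher after CCI (3.70%, background 2.13%) and 8 lower (0.528%, background 1.46%). With Benjamini-Hochberg adjustment over all regions, limma called 8 gap regions at an adjusted p under 0.05, 6 higher and 2 lower, against 0.344% of all accessible regions. At an unadjusted p under 0.05 there were 207, of which 178 were higher, against 11.1% of all accessible regions called.

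CCI rat 1 and the scaling bore on these counts. Without CCI rat 1 only 14 gap regions were called, 10 higher and 4 lower (background 0.29% and 1.5%), of which 10 were among the 64, and the median log2 fold change was 0.29. Median-of-ratios rescaling, which brings the median of all regions from 0.13 to 0.03, gave 31 higher and 14 lower (background 1.26% and 2.47%), with a gap median of 0.24. TMM factors in edgeR, with the median of all regions at 0.01, gave 41 higher and 14 lower (background 1.55% and 2.35%). Under the alternatives run across all regions, other than the 1 Mb centring described next, the gap regions kept a median 0.12 to 0.25 above that of all accessible regions.

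Much of the difference was shared with other accessible regions in the same stretch of chromosome. When the median of each rat over all accessible regions in windows of 1 Mb was removed, the median log2 fold change of the gap regions was 0.04, with all regions at -0.05. The median of the values removed was 0.30 for gap regions and 0.16 for all regions. Only 7 gap regions were then called higher and 14 lower, or 0.462% and 0.925%, against 0.489% and 2.85% of all accessible regions, and 7 of these 21 were among the 64. Compared with the other classes in the same window, the median log2 fold change of gap regions was 0.35 against 0.33 for regions with no H3K4me1 within 1000 bp (1513 gap regions, median difference 0.02). It was 0.35 against 0.38 for regions with H3K4me1 on 1 side only (1360 gap regions, median difference 0.0026). Against regions overlapping H3K4me1 it was 0.35 against 0.16 (1493 gap regions), with a median difference of 0.20 and the gap region above in 62.6% of cases. The exact permutation test over rats of the median difference in level within a window gave p = 0.2 against overlapping regions, 0.9 against regions marked on 1 side and 1.0 against regions away from the mark. The larger change at gap regions was therefore not shown to be particular to their position between H3K4me1 regions.

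**Figure D2:**
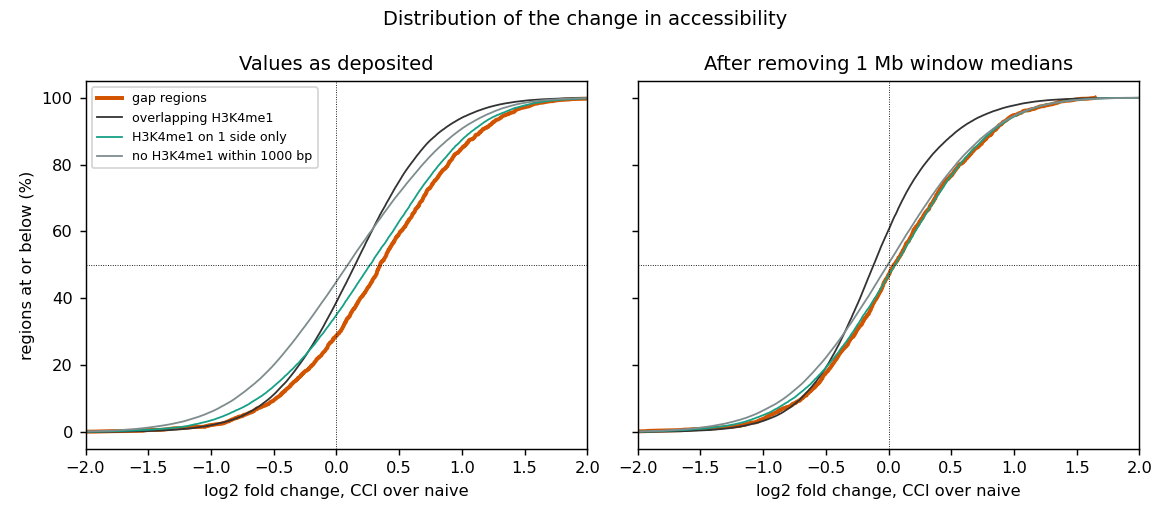
Cumulative share of regions (percent, vertical axis) at or below each log2 fold change of CCI over naive (horizontal axis, -2 to 2), for gap regions and the other 3 classes, with deposited values on the left and after removal of 1 Mb window medians on the right. The curve of the gap regions lies to the right of the others on the left side, with a median of 0.35, and runs along the curves of the unmarked regions on the right side, with a median of 0.04.

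The share of gap regions called rose with their length and with their signal. The share called was 1.47% of the 614 gap regions up to 200 bp, 3.44% of the 523 of 201 to 300 bp, 8.33% of the 288 of 301 to 500 bp and 14.6% of the 89 longer ones. Over all accessible regions of the same lengths it was 0.693%, 2.29%, 6.15% and 8.87%. The median log2 fold change ran the other way, at 0.36, 0.38, 0.33 and 0.22 for gap regions and 0.18, 0.15, 0.12 and 0.06 for all regions. In every length class the gap regions had both the higher median and the higher share called. Among the 279 gap regions in the lowest quintile of signal, none was called and the median log2 fold change was 0.46, whereas among the 187 in the highest quintile 17 (9.09%) were called and the median was 0.15. Over all accessible regions in these quintiles, 0.0428% and 8.73% were called, so both counts were near the background. In the quintiles between them the gap shares were above the background. From low to high signal they were 0.987% against 0.72%, 4.11% against 2.36% and 7.44% against 6.09%. The distance to the nearer H3K4me1 edge made little difference, with medians of 0.32 under 100 bases, 0.40 from 100 to 299 bases and 0.33 from 300 bases on. The called gap regions had a median length of 336.5 bp, against 216 bp for the rest.

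The called gap regions changed by at least 0.75 on the log2 scale, with a median of 1.30 among those higher and -1.27 among those lower after CCI. The groups did not overlap in 58 of the 64. A low p favours separate groups, so this count adds no support to the calls. Over all accessible regions, called or not, both CCI rats were above all naive rats in 18.2% and below them in 11.0%. The clearest increase was at chr9:114479455-114479893 (439 bp, in a gap of 813 bp), with 34.04 and 25.18 normalized reads after CCI against 11.44, 5 and 9.2 in naive rats. Each CCI value was well above the highest naive value. The log2 fold change was 1.73 ± 0.42 (SE), with an adjusted p = 0.0231 by limma, and it stayed at 1.40 and was still called after removal of the window medians. An accessible region in its flanking H3K4me1 had a log2 fold change of 0.67.

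The 4 further named gap regions with an adjusted p under 0.05 had higher levels of signal. At chr8:66304962-66305400 the CCI rats had 64.08 and 42.12 normalized reads and the naive rats 22.87, 21 and 20.37 (log2 fold change 1.24 ± 0.31, adjusted p = 0.0282 by limma). The naive rats were close to each other there, and the CCI rats far above them. After removal of the window medians this change was 0.52 and no longer called. At chr7:124329840-124330576, the longest region of this group at 737 bp, the values were 44.72 and 57.23 against 15.68, 24 and 23.66 (log2 fold change 1.25, adjusted p = 0.0296 by limma). The 1 accessible region in its flank was nearly as much higher, at 1.19. At chr6:137668921-137669272 the values were 41.39 and 32.96 against 14.38, 14 and 11.17 (log2 fold change 1.43, adjusted p = 0.0297 by limma). At chr20:11120916-11121486 they were 52.07 and 38.91 against 12.09, 24 and 19.06 (log2 fold change 1.30, adjusted p = 0.0305 by limma). All 4 regions separated the groups, and none of them was called once the window medians were removed.

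The largest fold changes came from shorter regions with few reads. At chr10:64617722-64617892 (171 bp), 48 bases from the nearer H3K4me1 edge, the CCI rats had 18.02 and 18.31 normalized reads and the naive rats 2.94, 5 and 3.29. The CCI rats were nearly equal and the log2 fold change was 2.04 ± 0.60 (SE, adjusted p = 0.095 by limma). At chr1:211440473-211440673 the values were 22.7 and 18.31 against 3.92, 9 and 1.97, with a log2 fold change of 2.02 ± 0.55 (adjusted p = 0.0596 by limma) that was 1.65, and still called, after removal of the window medians. At chr12:47980077-47980263 they were 11.35 and 13.73 against 4.25, 1 and 1.97, with a log2 fold change of 2.10 ± 0.81. This was the largest increase among those called, although naive rat 2 held a single read. The other 6 of the 10 largest increases lay on chromosomes 3 (3 regions), 5, 13 and 14, with log2 fold changes of 1.58 to 2.01. Separate groups were a condition for this list of 10. With CCI rat 1 left out, none of the 10 was called, while their log2 fold changes were 1.05 to 2.23.

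Gap regions that were lower after CCI were fewer. The largest decrease was at chr6:4393632-4393871 (240 bp, in a gap of 612 bp), with 2 and 4.12 normalized reads in the CCI rats against 19.28, 20 and 13.8 in the naive rats. Both CCI rats were far under every naive rat. The log2 fold change was -2.24 ± 0.53 (SE, adjusted p = 0.0158 by limma) and stayed at -2.04 after removal of the window medians and between -2.62 and -1.85 when any 1 rat was left out. At chr12:48832698-48833140 the values were 15.35 and 21.06 against 31.69, 40 and 38.11 (log2 fold change -0.98 ± 0.32, adjusted p = 0.157 by limma), and the change was -1.58 relative to its window. At chr8:26551827-26552378 they were 17.36 and 24.72 against 36.92, 33 and 49.28 (-0.89 ± 0.31, adjusted p = 0.203 by limma). These regions, too, were listed on condition that the groups were separate. At chr1:77011418-77011649 there were 4.01 and 6.41 normalized reads against 14.38, 11 and 21.69 (-1.40 ± 0.50, adjusted p = 0.212 by limma). The second lower region with an adjusted p under 0.05, chr2:156958592-156959115, had 4.01 and 21.52 normalized reads after CCI against 33.33, 20 and 40.08. There the groups overlapped, and the log2 fold change of -1.54 (adjusted p = 0.016 by limma) was -0.46, and not called, without CCI rat 1.

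**Figure D3:**
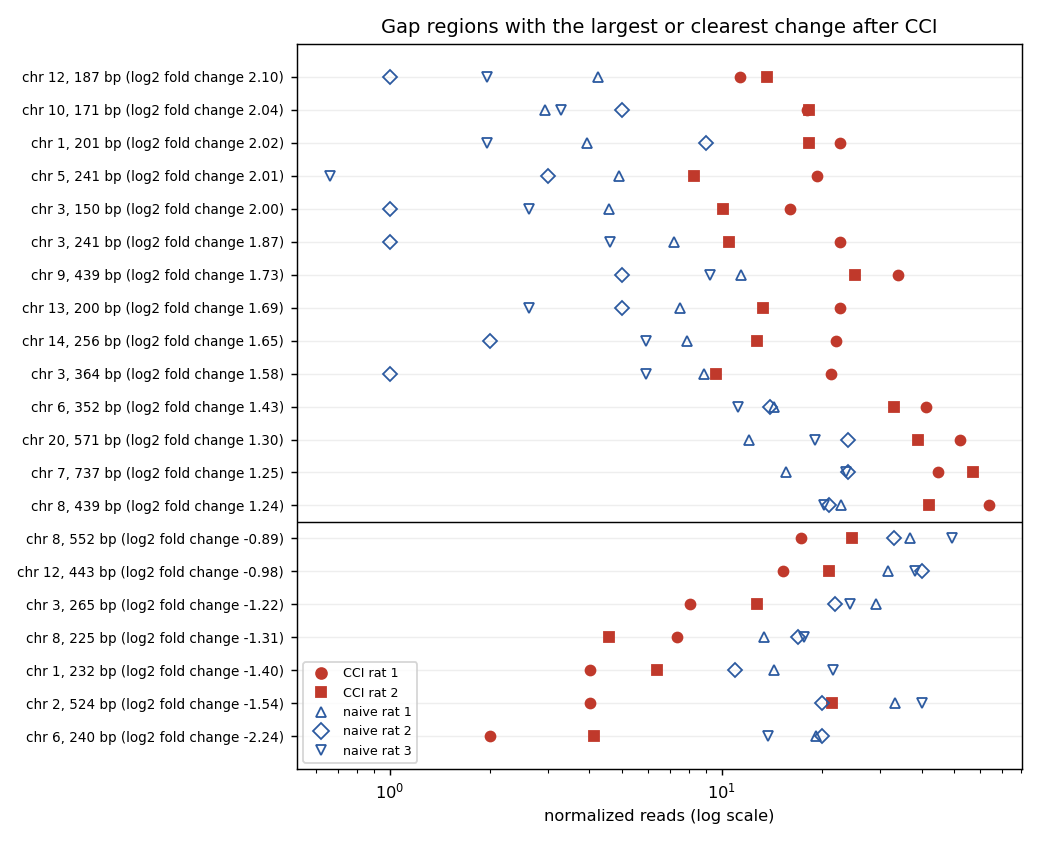
Normalized reads (horizontal log axis) in each of the 5 rats for the gap regions with the largest fold changes or the lowest p, with filled red symbols for the 2 CCI rats and open blue symbols for the 3 naive rats. Regions above the line were higher after CCI and regions below it lower, and the CCI and naive symbols are separate in every row but the one on chromosome 2 (log2 fold change -1.54), separation having been a condition for the largest changes.

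None of the 5 strongest gap regions was called under the deposited scaling. The highest mean was at chr14:77018279-77019188, a region of 910 bp filling most of a gap of 1037 bp, with 179.57 and 144.67 normalized reads after CCI against 223.48, 223 and 191.88. Both CCI rats were under all naive rats, and the log2 fold change of -0.39 was not called (adjusted p = 0.561 by limma), while relative to its window it was -0.77 and was called. At chr6:10946600-10947472 the values were 140.18 and 123.61 against 135.59, 177 and 125.51 (-0.13, adjusted p = 0.861). At chr12:36914939-36915406 they were 126.83 and 127.73 against 81.36, 135 and 81.48 (0.40, adjusted p = 0.555). The groups overlapped at both, as they did at chr1:221165811-221166289 and chr9:82755457-82756299, the other two of the 5 strongest, with log2 fold changes of 0.11 and 0.12. Of the 100 strongest gap regions, the smallest changes were at chr3:23029068-23029668, with 72.76 and 54.48 against 63.06, 80 and 48.63 (0.01 ± 0.26), and at chr7:142923987-142924206, with 32.71 and 31.59 against 27.45, 36 and 34.17 (-0.01 ± 0.30). Both were picked for their small change. Others among the 100 changed more, such as chr7:124329840-124330576, with a log2 fold change of 1.25.

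Gaps that held a pair of gap regions allowed neighbours to be compared. The members of the 32 pairs lay a median of 209.5 bp apart, and in 21 pairs both had a log2 fold change of the same sign, positive in 19. As 71.3% of all gap regions were above 0, many pairs would share a positive sign without any link between neighbours. The median absolute difference within a pair was 0.39. Of these 64 regions 1 was called, against 3.59% of all accessible regions. It was chr20:30960267-30960465, with 25.37 and 22.89 normalized reads after CCI against 9.15, 13 and 3.29 (log2 fold change 1.57 ± 0.45, adjusted p = 0.0804 by limma). On chromosome 10 both members of a pair were higher in the CCI rats without reaching the threshold. The first, chr10:96209743-96209903, had 13.35 and 12.36 normalized reads against 6.86, 3 and 1.97 (1.61 ± 0.67, adjusted p = 0.322). The second, chr10:96210212-96210666, had 29.37 and 19.23 against 10.78, 17 and 7.89 (1.005 ± 0.40, adjusted p = 0.295). The groups were separate at each of them.

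The flanking H3K4me1 regions often held accessible chromatin of their own. For 665 gap regions (43.9%) at least 1 accessible region overlapped a flanking H3K4me1 region, on both sides for 128. The gap region was usually the weaker, with a median of 11.5 normalized reads against 18.7 in its flanks, and exceeded them in 164 cases. The log2 fold change of the gap region was somewhat larger, with a median of 0.32 against 0.21, and lay above that of the flank for 378 of 665 (56.8%). Across these 665 regions the log2 fold changes of gap and flank had a Pearson correlation of 0.301 and a Spearman correlation of 0.304, where both sides come from the same 5 libraries. Of the 30 called-higher gap regions with an accessible flank, 28 had a positive flank median, as did 447 (67.2%) of all 665, and for 5 a flank region was itself called higher, as for 42 (6.32%) of all 665. Of the 6 called lower, 5 had a negative flank median, against 218 (32.8%) of all 665, and none had a flank region called lower, against 7 (1.05%). The 849 gap regions without accessible flanks had a median log2 fold change of 0.39, and 28 of them (3.30%) were called, against 36 (5.41%) of those with accessible flanks.

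**Figure D4:**
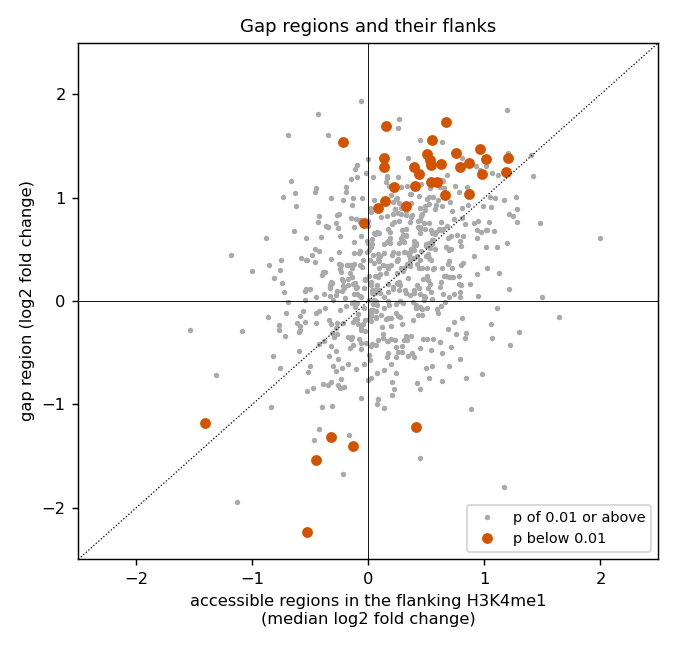
Log2 fold change (CCI over naive) of each of the 665 gap regions with accessible chromatin in a flanking H3K4me1 region (vertical axis) against the median log2 fold change of those flank regions (horizontal axis), with called gap regions in orange and the line of equal change dotted. Most called gap regions lie in the upper right part, above the line, where gap and flank were both higher after CCI.

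Of the 27 gap regions with a listed region in a flank, 21 had a listed neighbour whose log2 fold change in the same limma fit was positive, and 19 of these gap regions were also positive. Among all gap regions 71.3% were positive, so most would be so whatever their neighbour. The median over the 21 gap regions was 0.63. The neighbour was lower for 6, and 5 of these gap regions were negative. Among the 27, 2 were called, against 3.59% of all accessible regions, and both were higher after CCI. The first, chr5:146940256-146940480, lay 1751 bases from a region assigned to A3galt2, which encodes a glycolipid galactosyltransferase, and had 16.69 and 27.93 normalized reads against 8.49, 7 and 9.2 (log2 fold change 1.30 ± 0.45, adjusted p = 0.189 by limma). The other, chr1:197639263-197639471, lay 3005 bases from a region assigned to Sbk1, a serine/threonine kinase gene, and had 24.7 and 12.82 against 5.23, 7 and 6.57 (1.38 ± 0.50, adjusted p = 0.234). The groups were separate at both. Near Ptp4a2, a protein tyrosine phosphatase gene, the gap region had 19.36 and 12.36 against 3.59, 7 and 5.91 and was not called (1.38, adjusted p = 0.295). Near Sema7a, a semaphorin that acts on axon growth, it had 24.7 and 19.69 against 11.11, 18 and 9.86 (0.76, adjusted p = 0.452). Near Cdh2, the neuronal and glial adhesion protein N-cadherin, the listed region was lower (-1.43), whereas the gap region 1545 bases away had 16.69 and 10.07 against 16.34, 17 and 11.17 (-0.16, adjusted p = 0.905). A gap region could thus stand beside a changed region and overlap between the groups itself.

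Of called gap regions within 10000 bases of a listed region outside the flanks, 1 lay 4266 bases from a region assigned to Lgr4, a receptor for R-spondins in Wnt signalling. This was chr3:101092706-101092970, with 8.01 and 12.82 normalized reads against 29.08, 22 and 24.31 (log2 fold change -1.22 ± 0.38, adjusted p = 0.126 by limma). Another, chr8:98080236-98080460, lay 4726 bases from a region assigned to Tbc1d2b, a regulator of Rab GTPases, with 7.34 and 4.58 against 13.4, 17 and 17.74 (-1.31 ± 0.47, adjusted p = 0.229). Both CCI rats were under all naive rats in these 2 regions. The region chr3:11350025-11350240, 7703 bases from a region assigned to the Golgi matrix gene Golga2, had 26.03 and 18.31 against 11.76, 8 and 8.54 (1.15 ± 0.43, adjusted p = 0.249), with the groups separate. The region chr10:86681673-86682189, 8871 bases from the promoter of Nr1d1, which encodes the circadian repressor REV-ERBα, had 90.79 and 70.05 against 35.61, 76 and 25.63 (0.94 ± 0.27, adjusted p = 0.0879). It overlapped between the groups because naive rat 2 lay between the CCI rats.

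By chromosome, the median log2 fold change of the gap regions was positive on all 21 and above that of all accessible regions on each of them under the deposited scaling. It was highest on chromosomes 5 (0.59, 97 gap regions), 12 (0.57, 52) and 10 (0.52, 82) and lowest on X (0.02, 37). On chromosomes 10 and 12 all accessible regions were also high, at 0.49 on both, whereas on chromosome 5 they were at 0.17 and on chromosome 3 at 0.16 with gap regions at 0.49. Chromosome 8 held the most calls, 10 higher and 2 lower among 101 gap regions, where 4.36% of all its accessible regions were called. None was called among the 37 on X, where the share over all accessible regions was 2.24%. These are descriptions, with no test between chromosomes.

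**Figure D5:**
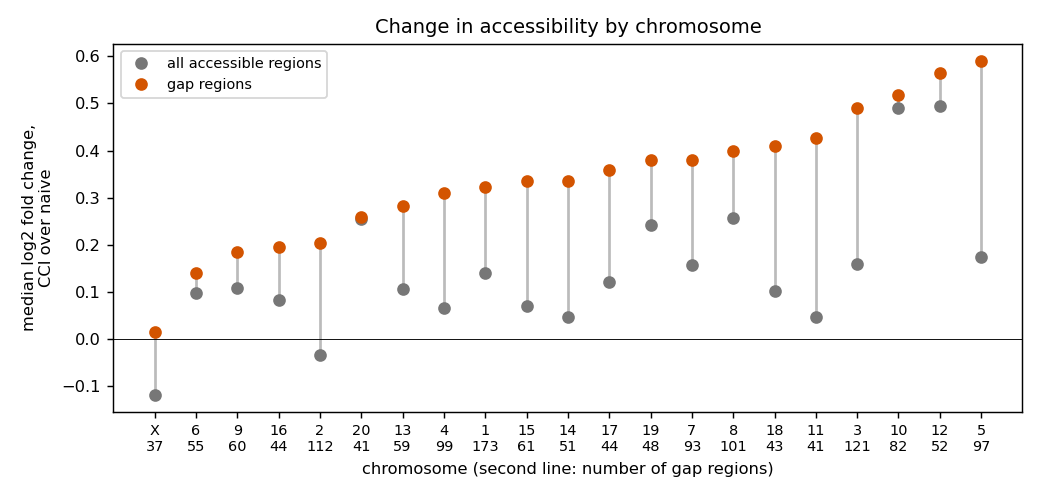
Median log2 fold change of CCI over naive (vertical axis) of gap regions and of all accessible regions on each chromosome, ordered by the gap regions, with the number of gap regions under each chromosome name. The gap regions range from 0.02 on X to 0.59 on chromosome 5 and lie above all accessible regions on each chromosome, by less than 0.01 on chromosome 20.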

How the data were processed

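ATAC-seq values of 2 CCI and 3 naive rats were used, with groups from the sample labels and column names. The paper's text gives differing group sizes in different places. Its account of the differential test has 2 CCI and 3 naive samples, the sizes used here. Reads had been aligned to rn6 with Bowtie2, filtered by mapping quality and for duplicates, and counted over MACS2 regions merged across libraries; the deposited signal is reads per region divided by a size factor of the library, and its lowest value is 1 read. Low values therefore have a floor, which pulls their fold changes towards 0. The H3K4me1 list deposited by the authors holds positions only. Distances count the bases between regions. The log2 of each value plus 1 was fitted for all 186719 regions in limma (version 3.58.1, under R 4.3.3) with a trended prior variance, and the two-sided unadjusted p had to be under 0.01. The authors' own tests covered accessible promoters and H3K4me1-overlapping regions and were not rerun. Windows of 1 Mb needed 20 regions. Whole reads were recovered from the signal for edgeR 4.0.16 and DESeq2 1.42.0. By edgeR with the deposited size factors 76 gap regions (5.02%) were called, against 3.89% of all accessible regions. Counting limits cover counting error only.

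Regions named were the 10 largest changes in each direction among called regions with separate groups (6 qualified among the lower), the 5 lowest p in each direction, the 5 highest means, the 5 lowest p in shared gaps, the 2 smallest changes among the 100 strongest, and regions next to listed ones. Members and lists were chosen with earlier results of these data known. Summaries used Python 3.11.15, pandas 2.3.3 and scipy 1.17.1, and figures matplotlib 3.10.9. The fit was tested on simulated data. Alternatives were other pseudocounts, thresholds, filters, scalings and tests, each rat left out, a replicate block and other flank distances. Equal depth and levels within windows were added after seeing the data. No per-sample column was left unmapped.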

Additional observations from a re-analysis of the deposited data

How the results depend on the processing

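The 64 calls became 207 at p under 0.05 (178 higher, 29 lower), 8 at an adjusted p under 0.05, 21 with centring on 1 Mb windows, 29 with DESeq2 (27 higher, 2 lower), and 14 to 74 when a rat was left out. Among the counts with a rat left out, only that without CCI rat 1 (14) differed from 64 by over 1.5 times. Without naive rats 1, 2 and 3 in turn, 2.84%, 4.89% and 3.37% of gap regions were called. The same fits called 2.03%, 3.69% and 2.8% of all accessible regions, so the gap share was above the background in each. With either CCI rat left out, the gap share was below the background. Those fits kept 1 CCI rat, so no conclusion is drawn from their calls. A replicate block gave 40 calls (35 higher, 5 lower), or 2.64% of gap regions against 2.11% of all accessible regions. Naive rat 3 was alone in its block, so the fold changes of this setting are those without naive rat 3. The gap median was 0.33 in both, and the block is no separate check. With DESeq2 the shares were 1.92% against 2.25%, and with window centring 1.39% against 3.34%. Rats of the same number share only that number: their deviations correlated at -0.06 and -0.06 over all regions and -0.02 and -0.02 over gap regions, and number 3 has no CCI partner. The other settings gave 43 to 76 calls, while they called 1.68% to 5.52% of all accessible regions. The gap share was below the background with quantile normalization (3.63% against 5.52%), median-of-ratios (2.97% against 3.73%) and TMM factors (3.63% against 3.9%). It was above the background in the rest, such as 2.84% against 1.68% with limma without a trend. Flanks within 500 bp left 356 gap regions (24 called, 6.74%), within 2000 bp 4677 (195 called, 4.17%), and flanks of at least 1 kb 100 (4 called). The same fit called 3.59% of all accessible regions. The median log2 fold change of 0.35 became 0.19 with a pseudocount of 10, 0.24 with median-of-ratios rescaling, 0.22 with quantile normalization, 0.26 with TMM factors and 0.043 with window centring, was 0.29 to 0.38 when a rat was left out, and moved by less than the spread between rats otherwise. Quantile normalization split the calls into 37 higher and 18 lower (2.44% and 1.19%, background 2.33% and 3.18%). The level relative to H3K4me1-overlapping regions was 0.766 per base, 0.294 from means over regions, 0.453 within the same windows, and 0.499 to 0.532 when a rat was left out.

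Among single regions, 109 values fell short of the threshold that the reported value passed, 11 passed it where the reported one did not, and 23 changed sign, all at regions that were not called. Those were chr6:10946600-10947472 when a rat was left out (-0.23 to 0.013), chr1:221165811-221166289 with median-of-ratios (-0.0023), window centring (-0.45) and TMM factors (-0.014), chr12:36914939-36915406 with window centring (-0.11), and chr9:82755457-82756299 with window centring (-0.15) and TMM factors (-0.0035). The others were the 2 regions with the smallest change. For chr3:23029068-23029668 the values were -0.10 with median-of-ratios, -0.0041 with quantile normalization, -0.061 with window centring, -0.17 with the block, -0.20 to 0.21 when a rat was left out, -0.00018 and -0.11 with edgeR on deposited and TMM factors, -0.0011 with DESeq2 and -0.053 at equal depth. For chr7:142923987-142924206 they were 0.031 with the block, -0.12 to 0.067 when a rat was left out, 0.0043 with edgeR and 0.072 at equal depth. The causes were not tested, other than that fewer or more regions meet other flank distances. With a median of 9 reads per gap region in the shallowest library, small changes of single regions were not detectable at this depth.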
